A study of Mus musculus with 10 samples.

Results

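Venous blood vascular endothelial cells (BECs) of mouse ear skin that held *Ackr1* or *Selp* transcripts but almost no *Sele* were taken from 2 droplet single-cell libraries, 1 from pups given a control antibody and 1 from pups given an antibody (Ab) that blocks angiopoietin-2 (Ang2). A barcode was included if it had at least 500 detected genes, at most 10% mitochondrial unique molecular identifiers (UMIs, counts of single transcripts), at least 1 *Flt1* UMI, at most 1 *Prox1* UMI, at most 1 UMI summed over *Pdgfrb*, *Kcnj8* and *Vtn*, at most 2 *Col1a2* UMIs, fewer than 3 UMIs summed over the arterial genes *Gkn3*, *Sema3g* and *Gja5*, at least 3 UMIs summed over *Ackr1* and *Selp*, and at most 1 *Sele* UMI. The barcodes were thus chosen by the measured UMIs of these genes, 175 in all, here called resting venous BECs, out of 2908 BEC barcodes and of 6401 barcodes that passed the limits on detected genes and mitochondrial UMIs. The word resting stands for the limit on *Sele* only. Because the genes above chose the barcodes, and every gene was read in the same barcodes, the differences between resting venous BECs and other barcodes are given as descriptions without a test.

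Both libraries came from C57Bl/6j wild-type (WT) mice, from cells of dissociated ear skin sorted on the endothelial surface protein CD31. The pups received 20 mg/kg of the blocking Ab or of a mouse IgG1 control at 3-day intervals between postnatal day (P) 16 and P21, and the age label reads P1 to P21 for both. The title of the Ang2 library ends in the word control, whereas its treatment label names the Ang2 antibody, and the treatment label was followed. The series asked how Ang2 and the Tie receptors act in lymphatic vessels, and its plates of sorted lymphatic cells were not used here. How many pups gave each library is not given in the sources used here. With 1 library for each treatment no difference has a replicate check, and every 95% interval below covers counting error only.

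The IgG library held 4685 barcodes and 42337184 UMIs, of which 3438 barcodes passed both limits and 1405 were BECs. The Ang2 Ab library held 4331 barcodes and 31720670 UMIs, with 2963 barcodes past both limits and 1503 BECs. There were 102 resting venous BECs in the IgG library, with a median of 11067.5 UMIs (range 818 to 30307) and 3436 detected genes, and 1083080 UMIs in all. The Ang2 Ab library gave 73, with a median of 8681 UMIs (range 1459 to 36707) and 3094 detected genes, and 697835 UMIs in all. Levels below are in CPM, the UMIs of a gene in a class of barcodes for each 1000000 UMIs of that class. The libraries shared 5 barcode sequences, and 0 of these were resting venous BECs.

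Venules are the blood vessels through which leukocytes leave the circulation. Their endothelium carries *Ackr1*, which encodes an atypical receptor that moves chemokines across the vessel wall, and it stores P-selectin (*Selp*) and von Willebrand factor (*Vwf*) together in Weibel-Palade bodies, from which both are released on stimulation. *Lrg1* encodes a secreted glycoprotein that modulates TGF-β signaling and is known from venular endothelium, and E-selectin (*Sele*) is made after stimulation by inflammatory cytokines. Ang2 (*Angpt2*), a ligand of the receptor Tie2 (*Tek*), is also stored in Weibel-Palade bodies of endothelial cells.

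The label was checked against its 4 markers. *Ackr1* (chromosome 1, 173331886 to 173333750 on GRCm38) was at 817 CPM in resting venous BECs of the IgG library (95% interval 764 to 873) and at 556 CPM in those of the Ang2 Ab library, against 6.31 and 9.34 CPM in arterial BECs. *Selp* (chromosome 1, 164115264 to 164150026) was at 632 and 447 CPM, against 11.7 and 8.36 CPM in arterial BECs. Both genes were part of the rule. *Vwf* (chromosome 6, 125546774 to 125686679) and *Lrg1* (chromosome 17, 56119678 to 56122001) were not. *Vwf* was at 1549 CPM in the IgG library and 1248 CPM in the Ang2 Ab library, 3.80 times (3.60 to 4.02) and 4.22 times (3.91 to 4.55) its level in all other BECs of the same library. *Lrg1* was at 1549 and 1222 CPM, 4.08 times (3.86 to 4.32) and 7.15 times (6.58 to 7.75) that of other BECs. Higher *Ackr1* and *Selp* were fixed by the rule, so that only *Vwf* and *Lrg1* bear on the label. *Sele*-positive venous BECs held more *Ackr1* (1055 and 844 CPM), *Selp* (1478 and 696 CPM) and *Lrg1* (2026 and 1548 CPM) and less *Vwf* (1121 and 1102 CPM).

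The promoters of the markers are shown because the 4 genes were read together in most of these barcodes. RefSeq sequences around the annotated start on GRCm38.p6 were found for *Ackr1* (chr1:173333454-173333753, minus strand), *Selp* (chr1:164115014-164115313, plus strand) and *Lrg1* (chr17:56121897-56122196, minus strand), and are written 5′ to 3′ on the strand of the gene. Capitals mark AGGAAG or its reverse complement CTTCCT, a core that many ETS family factors bind.
Ackr1: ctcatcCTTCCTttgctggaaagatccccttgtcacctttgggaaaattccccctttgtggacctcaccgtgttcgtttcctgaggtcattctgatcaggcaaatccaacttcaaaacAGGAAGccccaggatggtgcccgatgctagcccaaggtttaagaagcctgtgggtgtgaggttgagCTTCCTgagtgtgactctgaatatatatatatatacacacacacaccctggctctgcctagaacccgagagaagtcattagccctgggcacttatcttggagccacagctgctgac
Selp: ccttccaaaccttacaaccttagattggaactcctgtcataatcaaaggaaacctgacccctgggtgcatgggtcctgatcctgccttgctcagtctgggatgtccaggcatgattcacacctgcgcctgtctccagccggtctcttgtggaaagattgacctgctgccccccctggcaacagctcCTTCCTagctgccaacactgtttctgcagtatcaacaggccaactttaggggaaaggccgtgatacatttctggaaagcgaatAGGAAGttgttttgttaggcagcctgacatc
Lrg1: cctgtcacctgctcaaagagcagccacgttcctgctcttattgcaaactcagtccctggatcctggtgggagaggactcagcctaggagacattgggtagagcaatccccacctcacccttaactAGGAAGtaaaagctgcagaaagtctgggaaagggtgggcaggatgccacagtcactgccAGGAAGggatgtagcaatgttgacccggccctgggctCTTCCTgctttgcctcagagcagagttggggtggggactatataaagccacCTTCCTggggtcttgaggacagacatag
The motif AGGAAG, searched on both strands, was present in 3 of 3 marker promoters and in 11613 of 32851 RefSeq promoters of the same length (35.4%). The motif TGATAA, named for GATA factors, was present in 0 of 3, against 9.05% of all promoters, and the forkhead motif GTAAACA in 0 of 3, against 3.65%. A match describes these letters and is not evidence of a bound site.

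**Figure D1:**
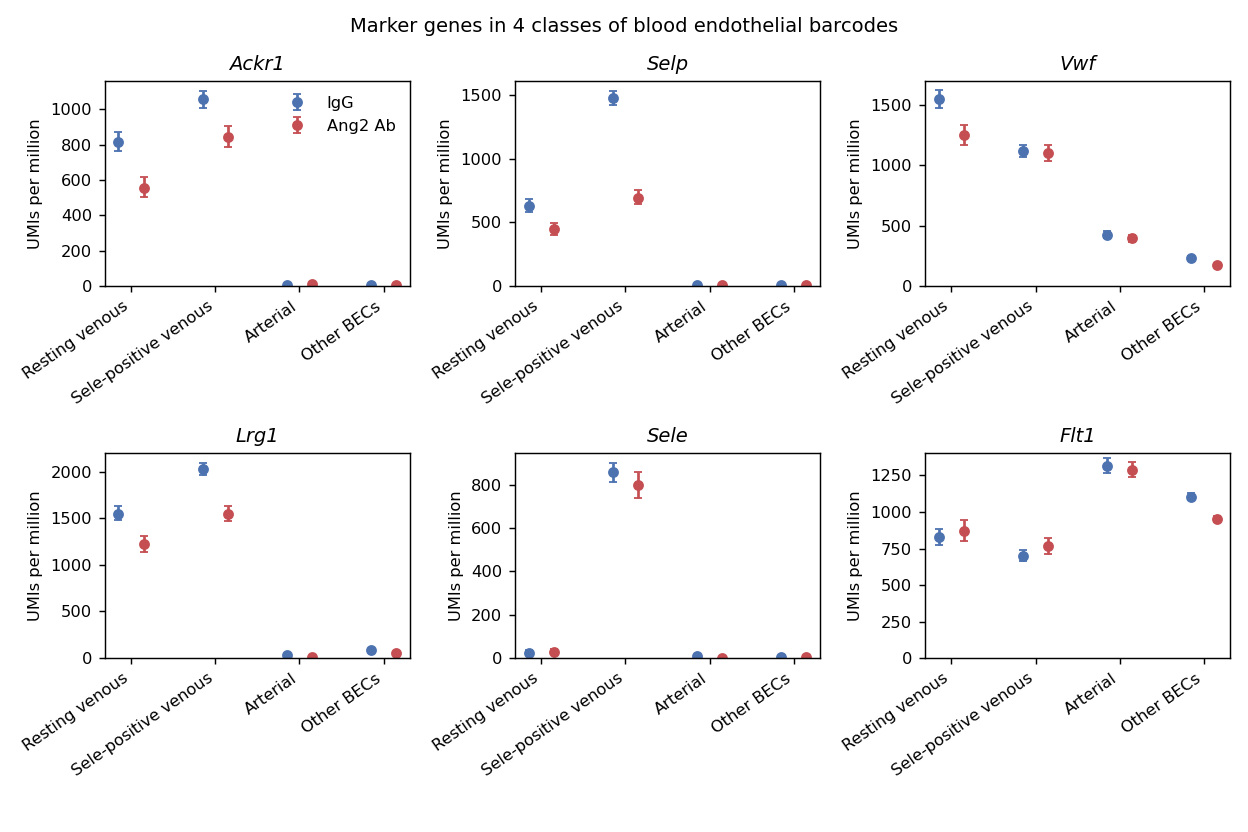
Level (CPM) of the 4 markers and of *Sele* and *Flt1* in 4 classes of BEC barcodes of each library, with 95% Poisson intervals, where the class Other BECs holds the barcodes that are neither venous nor arterial. *Vwf* and *Lrg1* were higher in resting and *Sele*-positive venous BECs than in arterial and other BECs of both libraries, and *Ackr1* and *Selp* were used to choose the venous classes.

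The markers varied widely among single barcodes. The sum of *Ackr1* and *Selp* ran from 3 to 102 UMIs (median 10) in the IgG library and from 3 to 37 (median 8) in the Ang2 Ab library. *Vwf* had a median of 14 UMIs in the IgG library and 10 in the Ang2 Ab library, and *Lrg1* a median of 12 and 9. Both *Ackr1* and *Selp* were detected in 84 of 102 IgG barcodes (82.4%) and 56 of 73 Ang2 Ab barcodes (76.7%). *Selp* was present without *Ackr1* in 13 and 10 barcodes, and *Ackr1* without *Selp* in 5 and 7. All 4 markers were detected in 81 (79.4%) and 53 (72.6%), and 1 barcode in the IgG library and 0 in the Ang2 Ab library had neither *Vwf* nor *Lrg1*. Thus most of these barcodes carried the complete marker set, and the rest lacked 1 or more of its genes at this depth.

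The markers outside the rule were also detected in other classes of barcodes. *Vwf* was detected in 97.1% of the resting venous BECs of the IgG library (91.6 to 99.4, exact binomial interval) and the share was 98.6% under Ang2 Ab (92.6 to 99.97). Mural cells and fibroblasts, which should lack the gene, had *Vwf* UMIs in 8.04% and 6.36% of barcodes, at median depths of 12561 and 11566.5 UMIs. *Lrg1* was detected in 96.1% and 93.2% of resting venous BECs and in 7.04% and 2.73% of mural cells and fibroblasts. Among *Sele*-positive venous BECs, *Vwf* was detected in 100% and 100% and *Lrg1* in 98.3% and 100%, which is at or above the shares of the resting class. Arterial BECs had *Vwf* UMIs in 78.2% and 71.6% and *Lrg1* UMIs in 11.6% and 6.03% of barcodes. BECs that were neither venous nor arterial had *Vwf* UMIs in 41.6% and 34.2% and *Lrg1* UMIs in 19.4% and 12.4% of barcodes, at median depths of 6248 and 5806 UMIs. *Lrg1* was also detected in 55.9% and 37.5% of lymphatic barcodes. Neither gene was thus confined to the resting venous BECs.

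The limit of 3 UMIs for *Ackr1* and *Selp* cut through a continuous range. In each library 11 barcodes had the lowest allowed sum, with a median of 7 and 5 *Vwf* UMIs and of 5 and 6 *Lrg1* UMIs (IgG, Ang2 Ab). Just outside lay 20 and 22 barcodes with 1 UMI fewer, with a median of 3.5 and 6 *Vwf* UMIs and of 2.5 and 3 *Lrg1* UMIs. On the other border, 27 of 102 (26.5%) and 20 of 73 (27.4%) resting venous BECs had the 1 *Sele* UMI that the rule allowed.

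RNA of other cell types differed by list. *Ptprc*, the pan-leukocyte gene, had 0 UMIs in all 102 and all 73 barcodes, which allows up to 3.55% and 4.93% of barcodes with a *Ptprc* UMI and sets no limit on cells that express the gene. The leukocyte marker list summed to 6.46 CPM in the IgG library, with 5 of its 8 genes at 0, and had all 8 genes at 0 in the Ang2 Ab library. The mural list summed to 829 and 891 CPM, of which *Tagln*, a gene of the smooth muscle cytoskeleton, made 736 and 791 CPM. The mural sum was thus higher than in all other BECs (507 and 546 CPM) and lower than in mural cells and fibroblasts (5407 and 8944 CPM). Keratinocyte markers summed to 124 and 11.5 CPM and erythrocyte markers to 233 and 201 CPM. *Pdgfrb*, the pericyte receptor and part of the rule, had 3 and 2 UMIs. Lymphatic markers summed to 144 and 123 CPM and fibroblast markers to 70.2 and 73.1 CPM. *Rgs5*, a pericyte gene, was detected in 30 and 19 barcodes. At least 1 of 6 genes of other cell types (*Ptprc*, *Krt14*, *Krt5*, *Lyve1*, *Dcn*, *Rgs5*) was detected in 44 of 102 (43.1%) and 27 of 73 (37.0%) resting venous BECs. Barcodes with such a UMI were left out in an alternative given with the processing below. The part this RNA had in the levels was not otherwise tested.

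The sex of the cells went against the labels, which read male for both libraries. *Xist*, the transcript of the inactive X chromosome, was at 569 CPM in resting venous BECs of the IgG library and 219 CPM in those of the Ang2 Ab library, and 4 Y-linked genes summed to 99.7 and 179 CPM. In the IgG library 60 barcodes had *Xist* and no Y-linked UMI, 29 had Y-linked UMIs and no *Xist*, 5 had both and 8 had neither. In the Ang2 Ab library the numbers were 22, 39, 3 and 9. Both libraries thus held cells of both kinds, with more *Xist* barcodes under IgG and more Y barcodes under Ang2 Ab. The calls between the libraries and the ratios of the genes described at length are therefore given below also within each kind. These ratios are given without counting intervals and rest on fewer UMIs.

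To describe these barcodes, their levels were compared with those of all other BECs of the same library. Of 10456 genes with at least 100 UMIs in these barcodes and the other BECs together, 249 were at least 2-fold higher in resting venous BECs in both libraries (2.38% of the genes compared) and 490 had a ratio of at most 0.5 (4.69%). Of the 12 genes in a list of venous and postcapillary genes, 12 had ratios over 1 in both libraries and 7 passed 2-fold in both, with a median ratio of 2.22 in the IgG library and 2.95 in the Ang2 Ab library. The median over all genes was 0.989 and 0.951. *Nr2f2*, which encodes the transcription factor that sets venous identity, was 4.25-fold and 5.22-fold higher. The cytokine receptor genes *Il6st* (gp130; 3.60-fold and 4.90-fold) and *Il1r1* (3.37-fold and 3.11-fold) were also higher. *Plvap*, the gene for the diaphragm protein of fenestrated and venular endothelium, was 2.31-fold and 2.80-fold higher. *Ephb4*, the venous receptor of ephrin-B2, differed less, by 1.54-fold in both libraries. *Emcn*, which encodes a sialomucin of veins and capillaries, was 1.67-fold and 1.58-fold higher. Against *Sele*-positive venous BECs, the venous list had median ratios of 1.13 and 1.10, beside 1.06 and 1.03 over all genes. There 0 of the 12 passed 2-fold in both libraries, beside 0.0662% and 0.248% of all genes. The venous list thus described both venous classes and did not set the resting one apart.

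The 12 genes with the highest ratios in both libraries were of several kinds. *Cysltr1*, the gene for a cysteinyl leukotriene receptor, was at 220.7 CPM in the IgG library, against 28.9 CPM in other BECs (7.64-fold, 6.44 to 9.05), and at 170.5 against 21.6 CPM in the Ang2 Ab library (7.89-fold, 6.28 to 9.88). *Cadm3*, an adhesion molecule of the nectin-like family, was at 223 and 189 CPM, 6.47-fold and 9.66-fold above other BECs. *Pcdh7*, a protocadherin gene, was 7.45-fold and 15.6-fold higher. *Plekha7* and *Pgm5*, whose products are found at adherens junctions, were 5.32-fold and 7.59-fold, and 5.26-fold and 5.45-fold higher. *Masp1*, a protease gene of the lectin complement pathway, was at 48.0 and 15.8 CPM, 7.34-fold and 21.4-fold higher. *Tll1*, a tolloid-like metalloproteinase gene, was 6.86-fold and 5.48-fold higher. The kinase gene *Ptk2b* (7.10-fold and 10.4-fold), *Bst1*, the gene for the ectoenzyme CD157 (5.43-fold and 5.65-fold), *Slfn4* (5.42-fold and 13.1-fold), the matrix gene *Emilin2* (5.35-fold and 8.45-fold) and the unnamed transcript B130024G19Rik (6.32-fold and 9.35-fold) were the others.

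**Figure D2:**
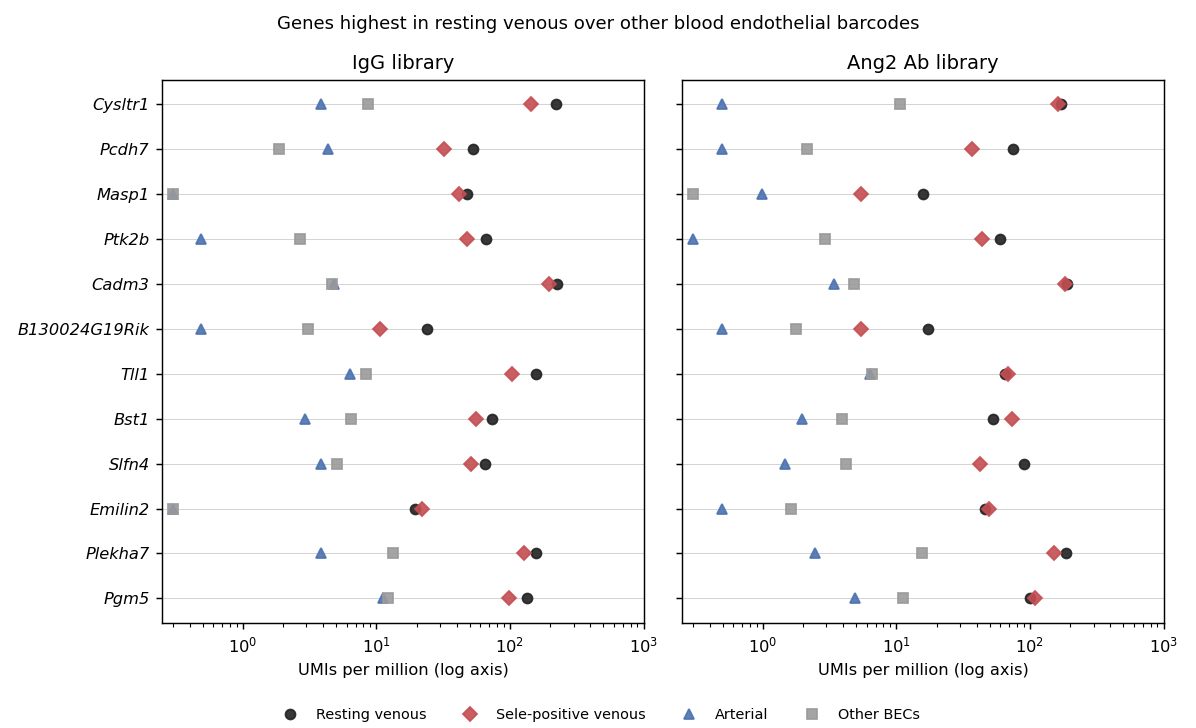
Level (CPM, log axis) of the genes with the highest ratios of resting venous BECs over all other BECs, by class of barcode in both libraries. Values under 0.3 CPM are drawn at 0.3. *Cysltr1*, for example, was at 220.7 and 170.5 CPM in resting venous BECs and at 144 and 162 CPM in *Sele*-positive venous BECs, so both venous classes stood above the arterial and other BECs.

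Arterial genes were low by the choice of barcodes, since the rule left out those with 3 or more UMIs of *Gkn3*, *Sema3g* and *Gja5* and the comparison held 216 arterial barcodes in the IgG library and 232 in the Ang2 Ab library. The levels that follow are therefore only descriptions. The arterial list had a median ratio of 0.189 and 0.197, with 6 of 9 genes at a ratio of at most 0.5 in both libraries, against 4.69% of all genes compared (490 of 10456). *Efnb2*, the arterial ephrin, was at 46.2 and 50.2 CPM (ratios 0.189 and 0.197), and the connexin gene *Gja4* had ratios of 0.0368 and 0.0673. Of 11 Notch pathway genes, 5 had a ratio of at most 0.5 in both libraries, against the same 4.69%, including *Dll4* (0.169 and 0.191), whereas the ligand gene *Dll1* was higher (2.62-fold and 2.05-fold). Among the capillary genes, *Btnl9* (0.0161 and 0.0525) and *Rgcc* (0.166 and 0.0532) were low. The lipid chaperone gene *Fabp4* (1.66-fold and 1.41-fold) and the water channel gene *Aqp1* (2.21-fold and 1.94-fold) were not low. Of the 9 genes of the capillary list, 3 were at most 0.5 in both libraries, against the same 4.69%. Only 2 of the 9 were over 1 in each library, and the median ratios were 0.633 and 0.598. *Cldn5*, the tight junction claudin of endothelium, was at 78.5 CPM against 632 CPM (ratio 0.124) and at 68.8 against 776 CPM (0.0887), and was chosen for mention after its values were seen.

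The basement membrane genes were mixed. Of 16, 6 had a ratio of at most 0.5 in both libraries and 1 of at least 2, against 4.69% and 2.38% of all genes compared. The median ratios were 0.726 and 0.556, and 5 and 3 of the 16 were over 1. *Col4a1*, a chain of the type IV collagen of basement membranes, had ratios of 0.293 and 0.255, and *Lama4* of 0.333 and 0.245. *Bgn*, which encodes the small proteoglycan biglycan, went the other way, at 3.07-fold and 3.04-fold. Erythrocyte genes, which report red cell RNA, were also low, with a median ratio of 0.0768 and 0.110. Of the 490 lower genes, 457 had at least 1 UMI in these barcodes, and 34 of all compared genes had 0 UMIs in both libraries. Taking 3 UMIs per library as the floor, the adenosine receptor gene *Adora2a* was at least 4.56-fold and 4.06-fold lower and the chemokine gene *Cxcl2* at least 7.08-fold and 3.96-fold lower.

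Genes of other vascular functions varied. Of 11 hemostasis genes compared with other BECs, 2 were at least 2-fold higher and 1 was at most 0.5 in both libraries. Over all genes compared, 2.38% and 4.69% passed these limits. *Procr*, the endothelial protein C receptor gene, was 2.53-fold and 2.44-fold higher. Of 13 BMP pathway genes, 1 was higher and 2 were lower by the same limits, beside the same 2.38% and 4.69% of all genes. The higher gene was the ligand gene *Bmp4* (3.85-fold and 3.08-fold), and the lower ones were the ligand gene *Bmp6* (0.265 and 0.328) and the inhibitory gene *Smad7* (0.445 and 0.477). Of 11 chemokine and cytokine genes, 2 were higher and 4 lower, beside the same 2.38% and 4.69%. Their median ratios were 0.589 and 0.324, against 0.989 and 0.951 over all genes. *Csf1*, the macrophage growth factor gene, was 2.79-fold and 3.32-fold higher, and *Cxcl16*, a transmembrane chemokine gene, 3.25-fold and 2.95-fold, whereas *Cxcl12*, a homeostatic chemokine gene, had ratios of 0.207 and 0.324. The other 3 lower ones, *Cxcl2*, *Cxcl9* and *Csf3*, had at most 2 UMIs in resting venous BECs. *Insr*, the insulin receptor gene, was 2.60-fold and 2.42-fold higher. In the Ang2 and Tie list, 0 of 13 genes passed 2-fold in either direction in both libraries. A list of this size could not be set apart from the 2.38% and 4.69% of all genes. *Tek* was at 1.15-fold and 1.49-fold, *Tie1* at 0.824 and 0.737, and *Angpt2* at 1.02 and 0.763. The receptor genes *Tek* and *Tie1* were thus within 2-fold of other BECs.

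The closest barcodes were the *Sele*-positive venous BECs, which met the same limits except that they had at least 2 *Sele* UMIs (116 in the IgG library and 68 in the Ang2 Ab library, with medians of 14413 and 12536.5 UMIs). Few genes differed by 2-fold in both libraries. Of 6042 genes compared under the same minimum, 4 were higher in resting venous BECs (0.0662%) and 15 lower (0.248%). The 4 were *Ablim3* (2.23-fold and 3.95-fold), *Aftph* (2.16-fold and 2.12-fold), *Efnb2* (2.04-fold and 2.42-fold) and *Enah* (2.18-fold and 2.03-fold). *Enah* encodes an actin regulator and *Ablim3* an actin-binding protein. The next highest were *Atp9b* (1.99-fold and 2.08-fold) and *Usf3* (1.90-fold and 1.94-fold).

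Immediate early genes respond within minutes to growth factors and cytokines, and heat shock genes encode chaperones. Of the list that joins both, 0 of 13 genes compared passed 2-fold in both libraries between resting and *Sele*-positive venous BECs. Over all genes compared, 0.0662% were higher and 0.248% lower, so that a list of this size could not be set apart by that count. The list had a median ratio of 0.548 in the IgG library and 0.604 in the Ang2 Ab library, against 1.06 and 1.03 over all genes, and 0 and 1 of the 13 were over 1. *Egr1* had ratios of 0.482 and 0.569, *Fos* of 0.566 and 0.569 and *Atf3* of 0.373 and 0.514. In the NF-κB and STAT3 response list, 0 of 12 passed 2-fold in both libraries, beside the same 0.0662% and 0.248%. The median ratios of this list were 0.643 and 0.801. In it, *Nfkbia*, the gene for the NF-κB inhibitor IκBα, had ratios of 0.504 and 0.609, and *Nfkbiz* of 0.359 and 0.578. *Icam1*, the ligand of leukocyte integrins, had ratios of 0.660 and 0.498. *Vcam1* differed in direction between the libraries (0.606 and 4.65). *Nr4a2*, an immediate early nuclear receptor gene that is not in the list above, was among the 15 lower genes, with ratios of 0.231 and 0.149. *Csf3*, the neutrophil growth factor gene, had 0 UMIs in resting venous BECs of both libraries, against 117 CPM and 0 UMIs in *Sele*-positive venous BECs. *Csf3* had thus no ratio in the Ang2 Ab library and was not counted among the 15 lower genes, which included *Sele* itself. A further 4 of the 15 that were named had few UMIs in resting venous BECs. The histone gene *Hist1h2ap* had 4 and 1 UMIs, with ratios of 0.0454 (0.0122 to 0.119) and 0.263 (0.00557 to 2.35), and the tubulin gene *Tubb6* 10 and 4 UMIs (0.227 and 0.263). *Mir155hg*, the host transcript of a microRNA of immune activation, had 15 and 2 UMIs, with ratios of 0.322 (0.172 to 0.566) and 0.125 (0.0142 to 0.513), and the spermidine synthase gene *Srm* 20 and 7 UMIs (0.359 and 0.401).

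**Figure D3:**
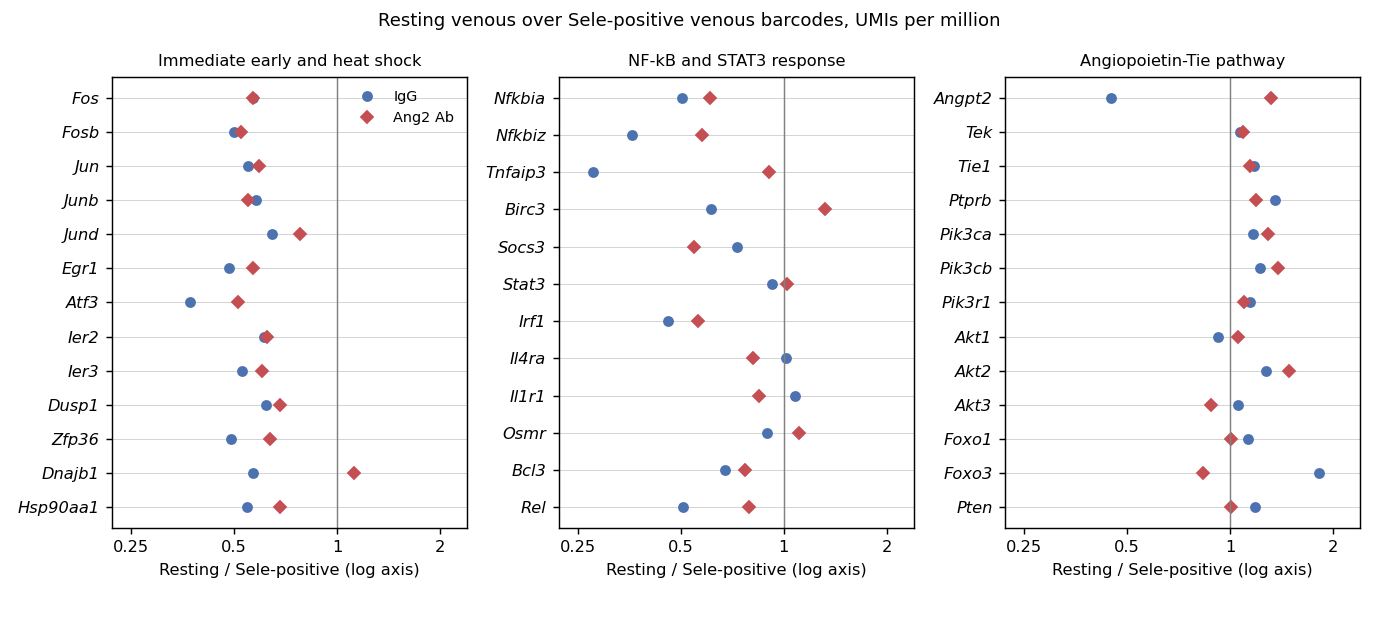
Ratio of the level in resting venous BECs to that in *Sele*-positive venous BECs (log axis) for genes of the immediate early and heat shock, NF-κB and STAT3, and angiopoietin-Tie lists with at least 10 UMIs in the resting venous BECs of both libraries. Most points of the first list lie under 1, with *Egr1* at 0.482 and 0.569, whereas *Tek* was at 1.07 and 1.09.

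The share of resting venous BECs among BECs was 7.26% in the IgG library (102 of 1405, 5.96 to 8.74) and 4.86% in the Ang2 Ab library (73 of 1503, 3.83 to 6.07). In an alternative, each barcode was reduced at random to 3000 UMIs and shallower barcodes were left out. The rule was then applied again to the reduced counts, so the barcodes chosen were not the same ones. Their share was 7.88% (85 barcodes) and 4.91% (52 barcodes). *Sele*-positive venous BECs made 8.26% (6.87 to 9.82) and 4.52% (3.53 to 5.70) of BECs. Both venous shares were thus lower in the Ang2 Ab library, and the intervals overlapped between the libraries for resting but not for *Sele*-positive venous BECs. The sums of *Ackr1* and *Selp* set these shares, and both genes were also lower within the chosen barcodes of the Ang2 Ab library. Their ratios of Ang2 Ab over IgG were 0.680 (0.602 to 0.768) for *Ackr1* and 0.707 (0.616 to 0.809) for *Selp*, and those of the markers outside the rule were 0.806 (0.741 to 0.875) for *Vwf* and 0.789 (0.726 to 0.857) for *Lrg1*. Within *Xist* barcodes and within Y barcodes the ratios were 0.753 and 0.772 for *Ackr1*, 0.680 and 0.947 for *Selp*, 0.765 and 1.14 for *Vwf*, and 0.878 and 0.887 for *Lrg1*. *Vwf* thus lay on the other side of 1 in Y barcodes. It did so also in the barcodes chosen anew after reduction to 3000 UMIs (1.12).

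To describe the effect of Ang2 Ab on the transcripts of resting venous BECs, the 3209 genes that reached 100 UMIs over all 175 barcodes were compared. The median ratio was 0.973. Of these genes, 7 were at least 2-fold higher (0.218%) and 32 had a ratio of at most 0.5 (0.997%) under Ang2 Ab. *Ddx3y*, a Y-linked gene, was among the higher genes and *Xist* among the lower, which leaves 6 and 31 apart from the sex-linked transcripts. Within *Xist* barcodes (60 and 22), all 6 had ratios over 1 and all 31 ratios under 1, of which 2 and 23 passed 2-fold. Within Y barcodes (29 and 39) the numbers were 6 and 29, of which 6 and 19 passed 2-fold. The other 2 lower genes were *Krt15*, with 0 UMIs in Y barcodes of both libraries, and *Lgals7*, with 0 and 1 UMIs. The genes were called on all 175 barcodes, which include these, so their direction within each kind was in part fixed in advance. The shares of all 3209 genes over and under 1 within each kind are not given. In *Sele*-positive venous BECs, 6 of the 6 were over 1 and 26 of the 31 under 1, of which 2 and 7 passed 2-fold, whereas 48.1% and 51.9% of the 3209 genes were over and under 1 there.

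*Depp1*, a FoxO-induced regulator of autophagy, had the highest ratio. It had 67 UMIs in 31 barcodes of the IgG library (61.9 CPM) and 131 UMIs in 36 barcodes of the Ang2 Ab library (188 CPM), a ratio of 3.03 (2.24 to 4.14), of which 27.5% of the Ang2 Ab UMIs lay in 1 barcode. Its ratio without the barcode with most UMIs in each library was 2.60, and its ratio was 1.22 in all other BECs of the same 2 libraries and 2.16 (1.74 to 2.68) in *Sele*-positive venous BECs. *Slco2b1*, which encodes an organic anion transporter, was at 142 and 305 CPM, a ratio of 2.15 (1.74 to 2.66), with 1.27 in other BECs and 2.94 in *Sele*-positive venous BECs. *Rhob*, the gene of a small endosomal GTPase, was at 278 and 569 CPM (2.05, 1.76 to 2.39), with 1.30 in *Sele*-positive venous BECs. The cytoskeletal gene *Synm* (2.33, 1.53 to 3.57), *Thap12* (2.28, 1.62 to 3.22) and the Ras-like gene *Rasd1* (2.05, 1.43 to 2.96) completed the 6. *Depp1* was the only one of them whose interval lay wholly over 2. Within *Xist* barcodes and within Y barcodes the ratio was 4.74 and 2.03 for *Depp1*, 1.87 and 2.94 for *Slco2b1*, and 1.65 and 2.83 for *Rhob*.

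Below 2-fold, the next highest ratios were those of *Fxyd5* (1.96), a regulator of the sodium pump, *Lmbr1* (1.95), the semaphorin receptor gene *Plxna4* (1.92) and the calcium-binding protein gene *S100a6* (1.87). *Nt5e*, the gene for the adenosine-producing ectoenzyme CD73, was at 59.1 and 109 CPM (1.84, 1.30 to 2.61). *Podxl*, a sialomucin gene of the luminal surface, was at 230 and 418 CPM (1.82, 1.53 to 2.16), with a ratio of 0.924 in other BECs and 1.66 in *Sele*-positive venous BECs. Of the 10 genes with the highest ratios, 8 had a RefSeq promoter. AGGAAG was present in 2 of these 8, and TGATAA and GTAAACA in 0.

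The lowest ratios came from keratinocyte genes and rested on 1 barcode. The keratin gene *Krt15* had 212 UMIs in the IgG library, 210 of them in 1 barcode, and 0 UMIs in the Ang2 Ab library, which makes it at least 45.5-fold lower against a floor of 3 UMIs in the library. The epidermal galectin gene *Lgals7* had 183 and 1 UMIs, with 177 of the 183 in the same barcode. That barcode had 26554 UMIs and 5274 detected genes, with 76 *Krt5* UMIs, 37 *Krt14* UMIs, 11 *Pecam1* UMIs, 8 *Cdh5* UMIs, 7 *Vwf* UMIs and 13 *Lrg1* UMIs, so that keratinocyte and venous transcripts were read under 1 barcode. The other 29 lower genes did not have the larger part of their IgG UMIs in a single barcode.

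The remaining lower genes described here were taken from the genes called and form no list. Of the basement membrane and matrix list, 14 genes had enough UMIs, 0 were at most 0.5 and 6 were over 1 (median 0.958). Of the chemokine and cytokine list, 3 had enough UMIs, with 1 at most 0.5 and 2 over 1. Over all genes compared, 0.997% were at most 0.5. *Cxcl1*, the neutrophil chemokine gene, had 218 UMIs in 18 barcodes of the IgG library (201 CPM) and 8 UMIs in 5 barcodes of the Ang2 Ab library (11.5 CPM), a ratio of 0.0570 (0.0243 to 0.114). In the IgG library 30.7% of its UMIs lay in 1 barcode and 88.99% in the 5% of barcodes with most of them, and its ratio without the top barcodes was 0.0411. In *Sele*-positive venous BECs it was 0.354. The ratio was 0.0524 within *Xist* barcodes and 0.0391 within Y barcodes. A handful of barcodes thus carried the level of this class, and most resting venous BECs of both libraries had 0 *Cxcl1* UMIs.

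*Vcan* encodes versican, a large proteoglycan of the extracellular matrix, and *Adamts9* a secreted protease that cleaves it. *Vcan* was at 168 CPM in the IgG library and 35.8 CPM in the Ang2 Ab library (0.213, 0.134 to 0.325), and was detected in 49 of 102 and 12 of 73 barcodes (48.0% and 16.4%), against 49.1% and 33.8% of *Sele*-positive venous BECs, 28.1% and 19.5% of mural cells and fibroblasts and 1.60% and 1.74% of lymphatic barcodes, whose median depths were 12543.5 and 11703 UMIs. The share in the Ang2 Ab library was thus below that of its mural cells and fibroblasts, whose median depth was higher. The barcodes were also reduced at random to equal depth, here with the classes kept as chosen at full depth. *Vcan* was then detected in 10.3% of the resting venous BECs of the Ang2 Ab library (4.24 to 20.1). For its mural cells and fibroblasts the reduced share was 9.18% (5.62 to 14.0). The order thus changed with depth and the intervals overlapped, so neither class could be placed above the other. The ratio of *Vcan* was 0.632 (0.464 to 0.850) in *Sele*-positive venous BECs, 0.0282 within *Xist* barcodes and 0.512 within Y barcodes. *Adamts9* was at 192 and 65.9 CPM (0.343, 0.244 to 0.474), with UMIs in 68 and 24 barcodes and a ratio of 0.385 in *Sele*-positive venous BECs, 0.430 within *Xist* barcodes and 0.316 within Y barcodes. Both genes were thus lower with Ang2 Ab. *Vcan* had 182 and 25 UMIs over all resting venous BECs, so its ratios within each kind rested on few Ang2 Ab UMIs. Whether these ratios differed between *Xist* and Y barcodes was not tested.

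*Ptn*, the gene of the secreted heparin-binding growth factor pleiotrophin, was at 278 and 71.7 CPM (0.258, 0.187 to 0.349), and its ratio was 0.289 in other BECs, 0.445 in *Sele*-positive venous BECs, 0.514 within *Xist* barcodes and 0.177 within Y barcodes. The transcription factor genes *Foxc1* (81.2 and 22.9 CPM, 0.282) and *Hhex* (96.0 and 34.4 CPM, 0.358) were lower, with ratios of 0.634 and 0.886 in other BECs and 0.802 and 0.816 in *Sele*-positive venous BECs. *Cyp4b1*, a cytochrome P450 gene, was at 149 and 50.2 CPM (0.337, 0.227 to 0.489), with 0.379 in *Sele*-positive venous BECs. *Rgcc* (0.310) and the retinol-binding protein gene *Rbp7* (0.341) had 33.3% and 41.5% of their IgG UMIs in 1 barcode. Both ratios exceeded 1 (1.23 and 1.63) in the barcodes chosen anew after reduction to 3000 UMIs. In *Sele*-positive venous BECs *Rgcc* went the other way, at 2.02 (1.48 to 2.76), and *Rbp7* was at 0.621. Other lower genes are named as examples only. *Gas6* (0.435), *Ccn1* (0.446), *Tll1* (0.411), *Npnt* (0.438) and *Igf1* (0.498) encode secreted or matrix-associated products, whereas 0 of 14 genes of the matrix list were at most 0.5. *Dusp2* (0.406) and *Dusp6* (0.432) encode phosphatases of MAP kinases.

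**Figure D4:**
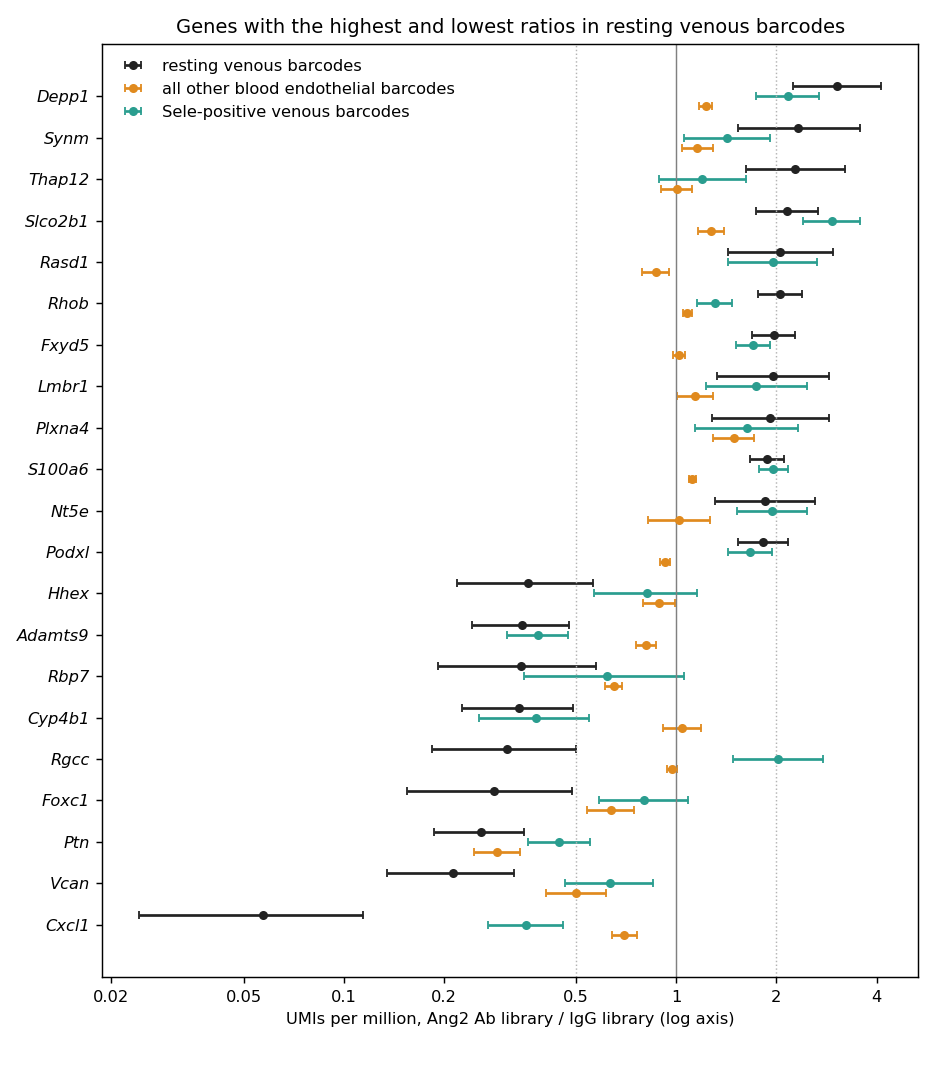
Ratio of Ang2 Ab over IgG (log axis) with 95% intervals in resting venous BECs, in *Sele*-positive venous BECs and in all other BECs, which include the latter, for 21 of the 24 genes with the highest and lowest ratios. *Krt15* and *Lgals7* had fewer than 3 UMIs in the Ang2 Ab library and are not drawn, and 1 further gene is not reported. *Depp1* was at 3.03 in resting venous BECs, 2.16 in *Sele*-positive venous BECs and 1.22 in all other BECs, and *Ptn* at 0.258, 0.445 and 0.289.

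The genes of the Ang2 pathway were described next. Of 15 genes in the list, 9 had enough UMIs and 0 passed 2-fold, with a median ratio of 0.912, whereas 0.218% and 0.997% of all genes compared passed it, so that a list of this size could not be set apart. *Angpt2* was at 65.6 CPM in the IgG library and 88.8 CPM in the Ang2 Ab library (1.36, 0.948 to 1.93), 1.80 in other BECs, 0.463 in *Sele*-positive venous BECs, 2.09 within *Xist* barcodes and 1.49 within Y barcodes. *Tek*, the gene for Tie2, was at 249 and 287 CPM (1.15, 0.953 to 1.39), and *Tie1*, the gene of its coreceptor, at 279 and 242 CPM (0.869, 0.715 to 1.05). The intervals of the ratios of these 3 genes over all resting venous BECs included 1. *Ptprb*, the phosphatase gene VE-PTP that acts on Tie2, was at 2176 and 1985 CPM (0.912, 0.853 to 0.975), and *Foxo1*, the transcription factor gene restrained by Tie2 signaling, at 188 and 148 CPM (0.784, 0.612 to 0.998). The ligand gene *Angpt1* had 1 and 0 UMIs and *Angpt4* had 0 in both. Of 18 FoxO target genes, 7 had enough UMIs and 0 passed 2-fold (median ratio 0.957), which a list of this size cannot set apart from the share of all genes. *Depp1* was not in this list.

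Other lists were described in the same way, beside 1422 of all 3209 genes with a ratio over 1. Of 12 interferon response genes, 4 had enough UMIs and 0 were over 1, with a median ratio of 0.589. The summed list went from 3019 CPM (IgG) to 2349 CPM (Ang2 Ab) in resting venous BECs. It went from 3637 to 2692 CPM in *Sele*-positive venous BECs, 3255 to 2702 in other BECs and 1895 to 1384 in lymphatic barcodes. Mural cells and fibroblasts went the other way (656 to 802 CPM). The lower level was thus not particular to resting venous BECs. *Bst2*, the gene for tetherin, was at 304 and 168 CPM (0.552, 0.443 to 0.684), and the ubiquitin-like modifier gene *Isg15* at 83.1 and 44.4 CPM (0.535, 0.343 to 0.812). Of 9 shear stress genes, 9 had enough UMIs and 7 were over 1, with a median of 1.16. *Klf4*, a flow-responsive transcription factor gene, was at 808 and 1237 CPM (1.53, 1.39 to 1.68), and *Thbd*, the gene for thrombomodulin, at 195 and 271 CPM (1.39, 1.14 to 1.70). *Klf2*, the other flow-responsive factor gene, was at 0.957. Within *Xist* barcodes *Klf4* was at 0.986 and within Y barcodes at 1.81.

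Of the IGF list, 4 of 7 genes had enough UMIs, with a median ratio of 0.608. *Igfbp3*, a binding protein gene of insulin-like growth factors, was at 107 and 51.6 CPM (0.482, 0.322 to 0.705), *Igfbp4* at 490 and 251 CPM (0.512, 0.429 to 0.608) and *Igfbp7* at 4050 and 2856 CPM (0.705, 0.669 to 0.744). The receptor gene *Igf1r* went the other way, at 137 and 221 CPM (1.61, 1.28 to 2.04). *Igfbp3* changed direction in the barcodes chosen anew after reduction to 3000 UMIs (1.20). Of the venous list, 12 of 12 had enough UMIs, 0 passed 2-fold and 3 were over 1 (median 0.833). Over all genes compared, 0.218% and 0.997% passed 2-fold, from which a list of this size could not be set apart. Among the 3 was *Il6st*, at 1823 and 2237 CPM (1.23, 1.15 to 1.31). In other BECs the median ratio of the venous list was 0.739. The immediate early and heat shock list had a median of 1.02, with 7 of the 13 genes compared over 1.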

How the data were processed

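The authors sequenced 2 droplet (10x) libraries of sorted endothelial cells and deposited UMI counts per gene and barcode, not normalized, aligned to GRCm38 (mm10) per the labels. The matrix headers name Cell Ranger 6.0.2 and the labels 2.1.1. The 32285 deposited gene rows were summed to 32245 symbols. No doublet caller was used, and lymphatic plates of the series were not used here.

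Barcodes were chosen by the limits given above, counts were summed over the barcodes of a class, and ratios of CPM were taken with exact conditional binomial 95% intervals (Poisson for levels, Clopper-Pearson for shares). Genes needed 100 UMIs over both libraries in the classes compared. A ratio of at least 2 or at most 0.5 counted as different. There was no test, since each treatment had 1 library. The calculation was run on simulated counts drawn independently for each gene from the summed levels. These counts do not hold the clustering of UMIs in single barcodes, so the intervals were not tested against it. Arterial BECs had at least 3 UMIs of *Gkn3*, *Sema3g* and *Gja5*, lymphatic barcodes at least 2 *Prox1* UMIs.

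The rule, gene lists and comparisons were chosen with earlier results of these data known. The text names the rule genes and markers, the 12 highest and 12 lowest ratios against other BECs and under Ang2 Ab (without *Xist* and Y-linked genes), the 6 highest and lowest against *Sele*-positive BECs, and examples of each list, some of which were chosen after their values were seen. For the lowest against other BECs, 34 genes tied at 0 UMIs in both libraries, so 12 could not be ranked, and only *Adora2a*, *Cxcl2* and *Csf3* are described. The result for 1 gene among the lowest under Ang2 Ab is not reported here. Other limits on UMIs, genes and barcodes, other scalings and another fold were tried, and leaving out the top barcode of a gene was added after the data were seen. Python 3.11.15, numpy 2.4.6, scipy 1.17.1 and pandas 2.3.3 were used.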

Additional observations from a re-analysis of the deposited data

Results flagged for a closer look

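For 6 of the genes named the ratio of Ang2 Ab over IgG in resting venous BECs lay on the other side of 1 from the ratio in the other BECs of the same libraries, with both 95% counting intervals clear of 1. The difference between the classes was not tested, since each treatment had 1 library. *Podxl* had a ratio of 1.82 (1.53 to 2.16) against 0.924 (0.894 to 0.956), *Klf4* of 1.53 (1.39 to 1.68) against 0.925 (0.901 to 0.949) and *Cxcl12* of 1.46 (1.28 to 1.67) against 0.934 (0.917 to 0.952). The Ras-like gene *Rasd1* was at 2.05 (1.43 to 2.96) against 0.868 (0.791 to 0.952). In the opposite direction, *Igfbp3* was at 0.482 (0.322 to 0.705) against 1.07 (1.04 to 1.10), and the keratinocyte gene *Lgals7*, whose IgG UMIs lay mostly in 1 barcode, at 0.00848 (0.000214 to 0.0478) against 1.57 (1.45 to 1.70). The *Sele*-positive venous BECs stood with the resting ones for *Podxl* (1.66, 1.43 to 1.93), *Rasd1* (1.95, 1.43 to 2.65) and *Cxcl12* (2.57, 2.28 to 2.91), whereas *Klf4* was at 1.07 (1.00 to 1.15) and *Igfbp3* at 0.892 (0.610 to 1.29) there. Within *Xist* barcodes of the resting class *Klf4* was at 0.986 and within Y barcodes at 1.81. Whether the mixture of *Xist* and Y barcodes has a part in these differences was not tested for the other BECs.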

How the results depend on the processing

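No paired analysis was possible because each treatment had 1 library. Of 46 single-gene ratios under 21 alternatives, 721 values were obtained, of which 576 lay within the counting interval and 136 outside it on the same side of 1, and 9 on the other side of 1. Of these 9, 4 belonged to ratios past 2-fold, namely *Rgcc* without the *Sele* limit (1.02) and after reduction to 3000 UMIs (1.23), and *Rbp7* (1.63) and *Igfbp3* (1.20) after the same reduction. The other 5 were *Vwf* after reduction (1.12) and in Y barcodes (1.14), *Angpt2* without the *Sele* limit (0.665), *Tek* at 5% mitochondrial UMIs (0.960) and *Klf4* in *Xist* barcodes (0.986). The cause was not tested. The number of resting venous BECs (102 and 73) was 218 and 141 without the *Sele* limit, 50 and 25 at 5% mitochondrial UMIs, 58 and 46 without barcodes holding a UMI of another cell type, 60 and 22 for *Xist* barcodes and 29 and 39 for Y barcodes. Their share of BECs (7.26% and 4.86%) was 15.5% and 9.38% without the *Sele* limit, 5.84% and 3.59% at 5 UMIs of *Ackr1* and *Selp*, 5.34% and 3.53% with *Sele* at 0 and 4.98% and 2.54% at 5% mitochondrial UMIs. In the Ang2 Ab library alone it left its interval at 2 UMIs of *Ackr1* and *Selp* (6.32%) and in Y barcodes (6.43%). In each of these settings it was lower under Ang2 Ab. Genes higher and lower under Ang2 Ab (7 and 32) numbered 15 and 53 without the *Sele* limit, 0 and 8 at 3000 UMIs, 3 and 14 without barcodes of other cell types, 16 and 21 in Y barcodes, 31 and 85 at a minimum of 50 UMIs, 2 and 11 at 200, 1488 and 2470 with no minimum and 68 and 166 at 1.5-fold. The lower genes numbered 19 at 5 UMIs of *Ackr1* and *Selp*. Reduction, with the rule applied again to the reduced counts, left 616 genes to compare. Genes higher than in other BECs (249) numbered 148 in Y barcodes, 565 with no minimum and 549 at 1.5-fold, and lower genes (490) 3159 and 902 under the last 2. Against *Sele*-positive BECs, higher genes (4) numbered 2 at 5 UMIs of *Ackr1* and *Selp*, 1 after reduction, 8 without barcodes of other cell types, 1 by median of ratios, 13 by mean CPM, 31 and 0 at minimums of 50 and 200, 414 with none and 101 at 1.5-fold. The lower genes (15) numbered 5 at 5% mitochondrial UMIs, 25 without the 5% of barcodes with most UMIs, 35 in *Xist* barcodes, 23 by median of ratios, 33 by mean CPM, 26 and 8 at minimums of 50 and 200, 370 with none and 75 at 1.5-fold. Without the top barcode of each gene, 6 of the 7 higher genes were still at least 2 and 32 of the 32 lower at most 0.5, and 5 and 24 of them still had the minimum of 100 UMIs.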

Other observations

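A cytokine gene and a chemokine gene with too few UMIs for the comparison were also lower in resting venous BECs of the Ang2 Ab library. *Il6*, a cytokine gene of acute inflammation, had 87 UMIs in the IgG library and 6 in the Ang2 Ab library (ratio 0.107, 0.0382 to 0.243). *Cxcl10*, an interferon-induced chemokine gene, had 78 and 0 UMIs, at least 16.8-fold lower against a floor of 3 UMIs in the library. Its ratio in other BECs was 1.11. These genes were named after their values were seen, and each count comes from 1 library. How many barcodes held these UMIs is not given, and neither are the ratios in *Sele*-positive venous BECs. The values therefore do not show a difference across the class.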
